A study of Mus musculus with 6 samples.

Results

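miR-320, miR-484 and miR-877 are microRNAs (miRNAs) made without Drosha, the nuclear enzyme that cuts most miRNA hairpins out of their long transcripts. Their RISC-bound short RNAs (R-sRNAs), held by Argonaute (Ago) proteins, were examined in the brains of 3 WT and 3 Tau tg mice. The members were chosen by name, as the rows annotated mmu-miR-320-3p, mmu-miR-484, mmu-miR-877-5p or mmu-miR-877-3p, which were 4 of the 782 mature miRNA names with reads in any sample. Of 706 rows with these names, 335 unique sequences were above 0 in at least 1 of the 6 samples, and 149 of them averaged at least 1 RPM (reads scaled to the library size). All 4 members passed the filter of a mean of at least 1 RPM that left 689 miRNAs for testing. The Tau tg mice expressed a fragment of human tau from a Thy 1.2 promoter, which is active in neurons. Both groups were male and 3 months old, per the study's methods, and the WT mice carried no transgene. The tissue was given as cortex and hippocampus combined in the protocol and as hippocampus in the sample names. The Tau tg samples carried separate mouse numbers, whereas the WT samples had only replicate numbers.

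Most miRNAs pass through 2 cuts, the first by Drosha in the nucleus and the next by Dicer in the cytoplasm. The precursors of miR-320 and miR-484 are instead transcribed directly as short capped hairpins, which leave the nucleus with their cap and are cut by Dicer only. miR-877 is a mirtron, a short intron that is spliced out, opened by the debranching enzyme and folded into a hairpin that Dicer can cut. In a mirtron the splice sites therefore set the outer ends of the hairpin. miRNAs of this kind are known for persisting in cells that lack Drosha.

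The sequences below are those of RefSeq (GRCm38.p6) for miR-484 and miR-877, since the ends of the reads are described against them. In the hairpins the capitals mark the annotated mature miRNAs, and in the mature miRNAs they mark the seed, bases 2 to 8, which pairs with target mRNAs.
Mir484 hairpin: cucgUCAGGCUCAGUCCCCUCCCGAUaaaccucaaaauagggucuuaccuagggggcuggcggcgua
mmu-miR-484: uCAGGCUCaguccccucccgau
Mir877 hairpin: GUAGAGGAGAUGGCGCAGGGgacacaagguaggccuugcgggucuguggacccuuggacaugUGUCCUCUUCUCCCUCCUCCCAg
mmu-miR-877-5p: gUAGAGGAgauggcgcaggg
mmu-miR-877-3p: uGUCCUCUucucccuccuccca
The Mir484 hairpin (ENSMUSG00000070074.1) lay at chr16:14159626-14159692 on the + strand, 67 nt long. It overlapped an exon of 1 Marf1 transcript, ENSMUST00000229614.1, which is read from the opposite strand, and its nearest annotated transcription start was that of Marf1, 359 bases away. Of 1005 RefSeq hairpins, 20.1% were at least as near to the start of a gene other than a miRNA, and the median distance was 3293 bases. The Mir877 hairpin (ENSMUSG00000077931.1) lay at chr17:35960730-35960814 on the - strand. Its 85 nt were exactly intron 12 of 22 of the Abcf1 transcript ENSMUST00000043757.14, with the GU of the 5′ splice site as its first bases and the AG of the 3′ splice site as its last. Only 16 of the 1005 hairpins, or 1.59%, coincided in this way with an annotated intron. No sequence is shown for miR-320.

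The libraries held between 998248 (WT 3) and 6879551 (Tau tg 1) reads in the table, and 82.7% to 92.4% of their RPM belonged to named miRNAs. The neuronal miRNAs miR-124-3p, miR-9-5p and miR-128-3p summed to between 129096 and 152339 RPM in every sample. Within that sum miR-9-5p did not overlap between the groups, at 29427 to 37677 RPM in WT and 44565 to 48005 RPM in Tau tg (log2 fold change 0.53, limma, adjusted p = 0.896), and miR-124-3p had a log2 fold change of -0.36 (limma, adjusted p = 0.896). Groups did not overlap for 9.53% of the 472 miRNAs above 0 in every sample. The red blood cell miRNAs miR-451a, miR-144-3p and miR-486a-5p|mmu-miR-486b-5p were all above 0 in every sample and summed to between 729 and 1186 RPM in WT and between 780 and 1294 RPM in Tau tg. Markers of oligodendrocytes (2 of 2 listed miRNAs above 0, 3723 to 7787 RPM in WT and 5038 to 7629 RPM in Tau tg), of immune cells (3 of 3, 320 to 520 RPM in WT and 276 to 390 RPM in Tau tg) and of choroid plexus (1 of 1, 1788 to 4824 RPM in WT and 1953 to 8110 RPM in Tau tg) overlapped between the groups, and their part in the levels below was not tested. In such bulk tissue, fewer cells of a type and less RNA per cell cannot be told apart.

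miR-320-3p was the most abundant member. It was ranked 66 by mean level among all miRNAs. Its level was 966, 1872 and 1886 RPM in WT 1, 2 and 3, and 877, 2444 and 2902 RPM in Tau tg 1, 2 and 3. One sample of each group was low and the other two were high, so the groups overlapped. WT averaged 1575 ± 527 RPM and Tau tg 2074 ± 1062 RPM (SD, n = 3). The log2 fold change, Tau tg over WT, was 0.29 (SE 0.43) and did not pass the test (limma, adjusted p = 0.905). Leaving out WT 1 or Tau tg 3 turned it to -0.03 or -0.04.

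miR-484 varied least. Its level was 723, 748 and 904 RPM in the WT samples and 702, 853 and 496 RPM in the Tau tg samples, and it was ranked 121. Tau tg 3 was the lowest sample, and the highest to the lowest differed by 1.82-fold, against 3.31-fold for miR-320-3p. WT averaged 792 ± 97.7 RPM and Tau tg 684 ± 179 RPM (SD, n = 3). The log2 fold change was -0.24 (SE 0.34, limma, adjusted p = 0.899).

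The arms of the mirtron miR-877 averaged 105 RPM (5p) and 87.6 RPM (3p) over the 6 samples, with either arm ahead in single mice. miR-877-5p, ranked 272, measured 56.2, 178 and 49.5 RPM in WT and 96.0, 116 and 136 RPM in Tau tg. WT 2 was the highest sample and the other 2 WT samples were the lowest, with the 3 Tau tg samples between them. WT averaged 94.7 ± 72.4 RPM and Tau tg 116 ± 20.1 RPM (SD, n = 3), and the log2 fold change of 0.53 (SE 0.59) did not pass the test (limma, adjusted p = 0.896). Without WT 2 it was 1.11, without WT 1 it was 0.29 and without WT 3 it was 0.20.

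miR-877-3p, ranked 292, measured 111, 64.4 and 98.2 RPM in WT and 51.9, 95.3 and 105 RPM in Tau tg. Each group had 1 sample under 70 RPM and a pair above 90 RPM. WT averaged 91.2 ± 24.1 RPM and Tau tg 84.0 ± 28.2 RPM (SD, n = 3). The log2 fold change was -0.14 (SE 0.57, limma, adjusted p = 0.966). It was 0.02 without WT 1 and 0.17 without Tau tg 1.

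None of the 4 members had an adjusted p under 0.05, or an unadjusted p under 0.05, of which the lowest was 0.384. Over all 689 miRNAs, limma called 0% at an adjusted p under 0.05, and 3.63% had an unadjusted p under 0.05 (14 higher and 11 lower in Tau tg). edgeR, run on the whole reads recovered from the RPM, also called 0 miRNAs after adjustment, and DESeq2 called 5. The 95% intervals of the members' log2 fold changes were wide, from -0.62 to 1.20 for miR-320-3p, from -0.96 to 0.48 for miR-484, from -0.73 to 1.79 for miR-877-5p and from -1.35 to 1.06 for miR-877-3p. They leave room for changes of either direction. The median log2 fold change of all 689 miRNAs was itself 0.25, while median-of-ratios scaling brought it to 0.09. Relative to the median of 0.25, the members stood at 0.04, -0.49, 0.28 and -0.39 in the order above. Together the 4 members made up 0.323% ± 0.095 of the miRNA RPM in WT and 0.347% ± 0.136 in Tau tg (SD, n = 3).

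**Figure D1:**
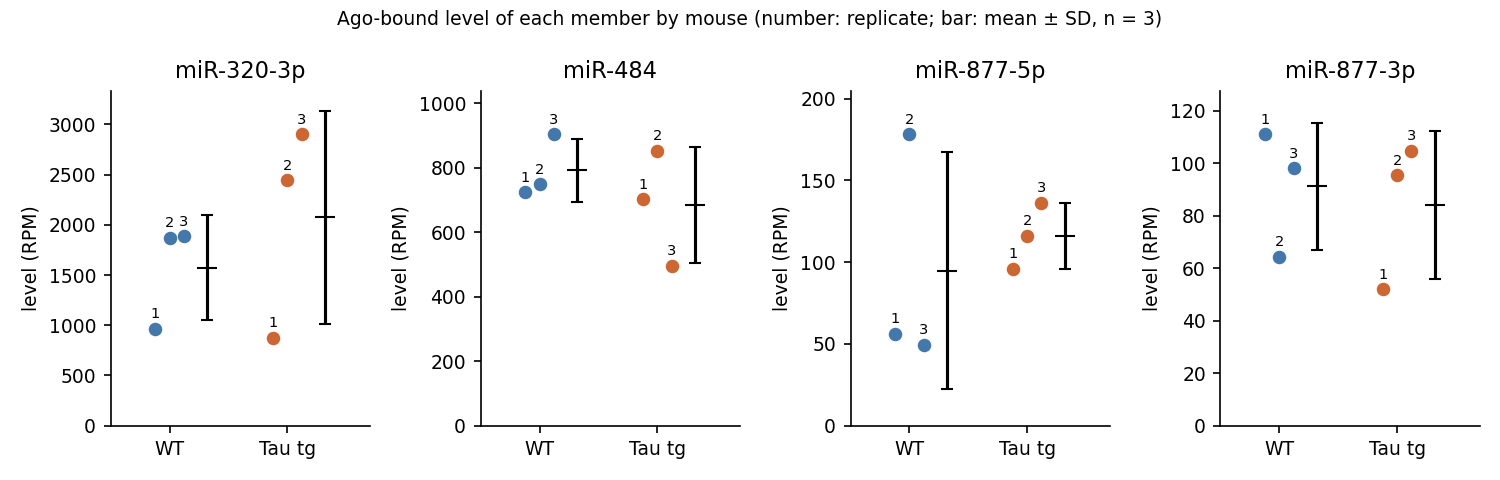
Level of each member in RPM (vertical axes, from 0) in the 3 WT and 3 Tau tg mice. Points are mice with their replicate number and bars are the mean ± SD. In all 4 panels the groups overlap, and WT 1 and Tau tg 1 are the lowest points for miR-320-3p.

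Other miRNAs known or annotated as made without Drosha were taken from a list, and none of them was called either. This list left out some hairpins that coincide with introns, such as Mir7080, Mir3547 and Mir6944. The list held 15 mature names: mirtron arms, miRNAs cut from snoRNAs, and miR-320-5p, the other arm of the miR-320 hairpin. Of these, 12 were tested, and 0 had an adjusted or an unadjusted p under 0.05 by limma. Over all 689 miRNAs these shares were 0% and 3.63%. The fold changes of 9 were above 0 and those of 3 below, with a median log2 fold change of 0.61 beside 0.25 for all miRNAs. The 4 members split evenly, with 2 above and 2 below 0 and a median of 0.07. No reads carried the names miR-702-5p, miR-1982-5p or miR-3102-5p.

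The mirtron arms ranged from above the level of miR-877 to far below it. miR-3102-3p, a mirtron arm, was the highest of them at 451, 145 and 166 RPM in WT and 361, 349 and 338 RPM in Tau tg. The mirtron arm miR-1224-5p measured 74.0, 66.4 and 69.7 RPM in WT and 70.0, 248 and 63.8 RPM in Tau tg, so a single sample set its higher Tau tg mean (log2 fold change 0.56, limma, adjusted p = 0.896). miR-1224-3p measured 12.2, 7.45 and 7.34 RPM in WT and 31.2, 14.2 and 35.6 RPM in Tau tg, and it was the one list entry whose groups did not overlap. Of 472 miRNAs above 0 in every sample, 9.53% had groups that did not overlap, and the log2 fold change of miR-1224-3p, 1.42 (SE 0.95), had an adjusted p of 0.896 by limma. Of the entries below 0, miR-1982-3p had the largest log2 fold change, -1.57 (SE 1.41, limma, adjusted p = 0.896), at 23.9, 0 and 10.1 RPM in WT and 6.55, 0 and 0.409 RPM in Tau tg, with overlapping groups. miR-1981-5p was next, at 44.5, 108 and 87.1 RPM in WT and 34.4, 24.3 and 45.8 RPM in Tau tg (log2 fold change -1.13, SE 0.68, limma, adjusted p = 0.896). Its other arm, miR-1981-3p, stayed between 2.03 and 26.8 RPM, and miR-702-3p between 12.2 and 62.7 RPM.

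Of the snoRNA-derived miRNAs, miR-1839-5p measured between 252 and 503 RPM and miR-1839-3p between 52.3 and 169 RPM over the 6 samples. miR-1839-3p had the lowest unadjusted p of the list, 0.105, with a log2 fold change of 0.94 (limma, adjusted p = 0.896). miR-664-3p measured between 205 and 357 RPM, and miR-664-5p between 0 and 32.8 RPM. miR-320-5p was nearly missing, with 0, 0 and 9.17 RPM in WT and 1.28, 0 and 3.27 RPM in Tau tg, or 27 reads in all 6 samples. Nearly all miR-320 reads in these libraries were thus of the 3p arm, whereas both arms of miR-877 had reads. Whether a 5p arm that kept the cap could enter the libraries was not tested.

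**Figure D2:**
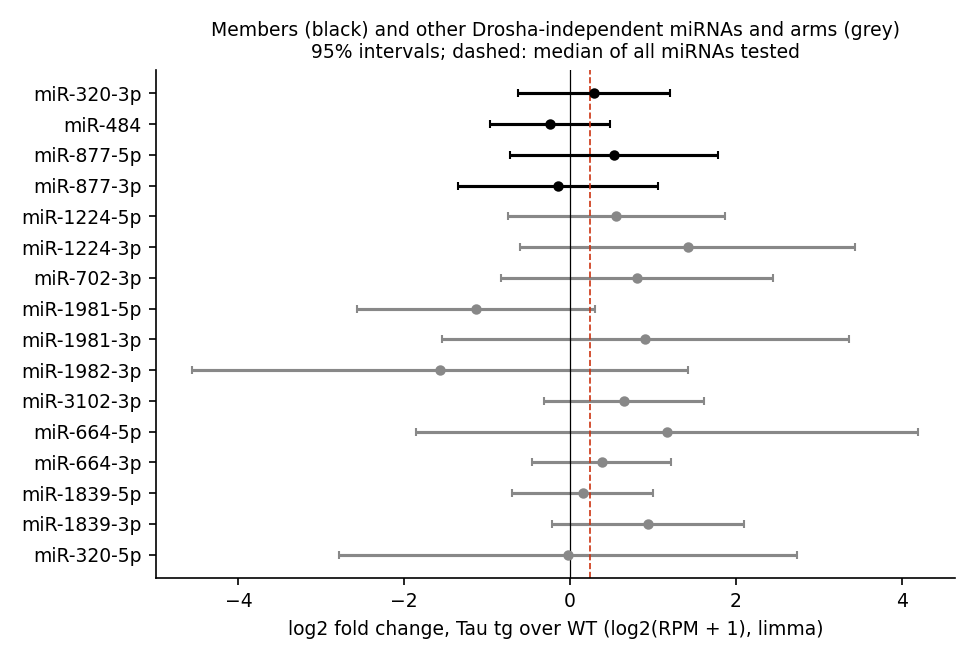
Log2 fold change, Tau tg over WT, on the log2(RPM + 1) scale (horizontal axis) for the 4 members (black) and the 12 tested miRNAs of the list (grey), with 95% intervals from limma. Every interval includes 0, and the dashed line is the median of all 689 miRNAs, 0.25.

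The share of the 5p arm in the miR-877 RPM was 33.6%, 73.5% and 33.5% in WT 1, 2 and 3. It was 64.9%, 54.9% and 56.5% in the Tau tg samples. Which arm led differed between mice, with the 3p arm ahead in WT 1 and WT 3 and the 5p arm ahead in the other samples. The means were 46.9% ± 23.0 in WT and 58.8% ± 5.35 in Tau tg (SD, n = 3). Tau tg was 11.9 percentage points higher, less than the WT spread (exact permutation test, two-sided, with 20 possible assignments, p = 0.4, adjusted over 9 measures p = 0.9). With 3 samples against 3 this test cannot give a p below 0.1. Leaving out WT 2 raised the difference to 25.2 points and leaving out WT 1 or WT 3 lowered it to no less than 5.26 points.

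The seed that a read presents depends on its 5′ end, and the deposited table gives each 6mer seed, read bases 2 to 7, a viability. This is the percent of cells that stayed viable after transfection with a short RNA carrying that seed, as the authors' mean of 3 murine lines, and toxic seeds have low values. The main seed of miR-320-3p, that of its most abundant sequence, was AAAGCU with a viability of 54.3%. That of miR-484 was CAGGCU with 34.3%, and that of miR-877-5p was UAGAGG with 47.4%. miR-877-3p carried 2 seeds at almost equal levels, CCUCUU with a viability of 66.1% and GUCCUC with 8.2%. The weighted mean viability over all reads of a member, with RPM as weights, was 54.4% ± 1.30 in WT and 54.5% ± 0.444 in Tau tg for miR-320-3p, 34.3% ± 0.290 and 33.8% ± 0.597 for miR-484, and 47.8% ± 0.484 and 47.5% ± 0.086 for miR-877-5p (SD, n = 3). All 3 were below the 58.5% ± 1.35 in WT and 57.7% ± 0.350 in Tau tg of all miRNA reads. For miR-877-3p it was 37.8% ± 20.2 in WT and 32% ± 3.26 in Tau tg, a spread that came from the balance of its 2 seeds.

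These 2 seeds followed from 2 start sites on the hairpin. The reads below are the 4 most abundant of miR-877-3p, written with U, with the deposited 6mer seed in capitals, and they show the 2 starts and the added 3′ U described further on.
miR-877-3p read 1: uCCUCUUcucccuccucccagu
miR-877-3p read 2: uGUCCUCuucucccuccucccagu
miR-877-3p read 3: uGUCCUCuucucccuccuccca
miR-877-3p read 4: uGUCCUCuucucccuccucccag
Reads 2, 3 and 4 began at hairpin base 63, as the RefSeq miRNA does, and read 1 began at base 65. Reads from base 63 made up 50.5% of the mean level and reads from base 65 made up 49.2%. No read of this arm began at base 64 in any sample.

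The balance of the 2 starts differed widely between WT mice. The seed GUCCUC was carried by 50.6, 54.9 and 15.6 RPM in WT and by 33.0, 57.7 and 55.2 RPM in Tau tg. The seed CCUCUU was carried by 60.4, 9.49 and 82.6 RPM in WT and by 18.8, 37.6 and 49.5 RPM in Tau tg. In WT 2 only 14.7% of the miR-877-3p reads had the seed CCUCUU (14 of 95 reads, 95% Wilson interval 8.99% to 23.2%), whereas in WT 3 84.1% had it (90 of 107 reads, interval 76.0% to 89.8%). WT 1 stood between them at 54.4%, and the Tau tg samples, at 36.2%, 39.5% and 47.3%, lay inside the range of WT. Such intervals cover counting error only, since without molecular identifiers copies made by PCR cannot be told from separate molecules. The means of 51.1% ± 34.8 in WT and 41.0% ± 5.70 in Tau tg (SD, n = 3) differed by less than the WT spread (exact permutation test, p = 0.7, adjusted p = 1). Without WT 3 the sign of the difference turned, to 6.38 points.

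**Figure D3:**
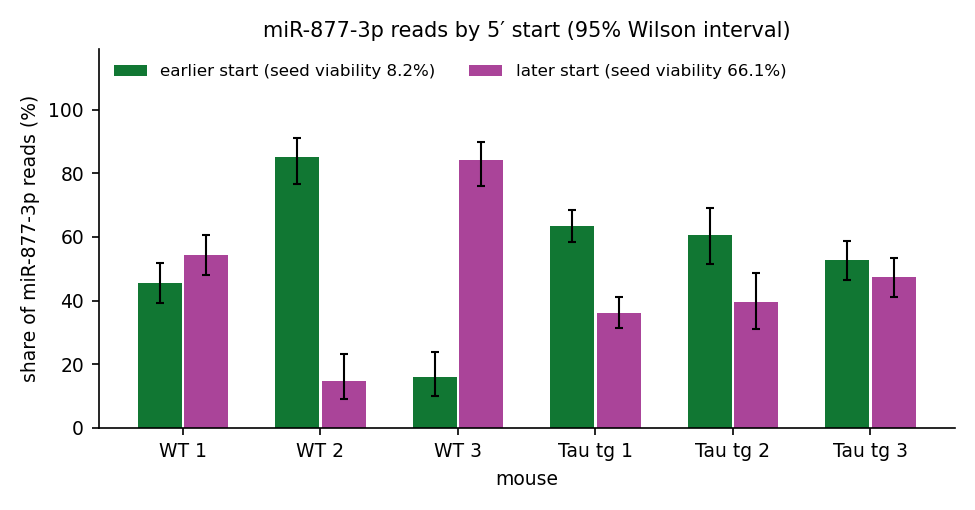
Share of miR-877-3p reads (percent, vertical axis) that began at the earlier start (hairpin base 63, green) or the later start (base 65, purple) in each mouse, with 95% Wilson intervals. The later start holds 14.7% of reads in WT 2 and 84.1% in WT 3, and between 36.2% and 47.3% in the Tau tg mice.

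Single sequences behind these sums also jumped between samples. Read 1 measured 40.8, 2.71 and 23.9 RPM in WT and 4.13, 23.4 and 14.7 RPM in Tau tg, which were 87 reads in WT 1 and 4 in WT 2. Read 2 measured 0.937, 24.4 and 0 RPM in WT and 0.711, 22.6 and 15.1 RPM in Tau tg, or 2 reads in WT 1 and 36 in WT 2. In the WT samples read 1 was high where read 2 was low and the reverse, while Tau tg 2 and Tau tg 3 held much of both and Tau tg 1 little of either. Of the 25 sequences of miR-877-3p, 4 were seen in all 6 samples and 8 in a single sample.

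The other members had a steadier 5′ end. For miR-484, 97.3% of the mean level had the main seed, between 93.2% and 99.8% in the single samples. Its next seed, AGGCUC with a viability of 13.2%, lies 1 base further along and held 1.22%. miR-320-3p was less even, with 82.5% on its main seed. The seed AAGCUG, 1 base further along and with a viability of 64.2%, held 12.9% of its mean level, and AGCUGG, 2 bases further along and with a viability of 19.3%, held 2.82%. The share of the main seed of miR-320-3p was 92.3%, 75.5% and 78.8% in WT and 81.3%, 85.5% and 84.0% in Tau tg, so WT 1 and WT 2 were the extremes. miR-877-5p held 93.0% on its main seed and 7.0% on AGAGGA (viability 49.7%), 1 base further along. In WT 3 the shifted seed took 40.7% of the miR-877-5p reads (22 of 54, 95% Wilson interval 28.7% to 54.0%), while it took at most 9.13% in the other 5 samples. All 22 of those reads were 1 sequence, which measured 20.2 RPM in WT 3, 6.55 RPM in Tau tg 1, 0.468 RPM in WT 1 and 0 RPM in the other samples.

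Whether the share of the main seed differs between the groups cannot be decided here, since this test cannot give a p below 0.1. The difference, Tau tg minus WT, was 1.40 percentage points for miR-320-3p (exact permutation test, p = 0.9, adjusted p = 1), -2.23 points for miR-484 (p = 0.3, adjusted p = 0.9) and 14.4 points for miR-877-5p (p = 0.2, adjusted p = 0.9). For miR-877-5p it was 2.47 points without WT 3.

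Only some of these seeds belong to a member alone. Of all RPM with the seed AAAGCU, 23.2% came from miR-320-3p, and most of the rest came from miR-9-3p, a neuronal miRNA with a mean level of 4904 RPM on the same seed. miR-9-3p reads with this seed measured between 3837 and 6358 RPM over the samples, above miR-320-3p in each of them. miR-320-3p instead gave 79.0% of the RPM with the shifted seed AAGCUG, where miR-22-3p was next at 42.2 RPM. miR-484 gave 95.7% of all RPM with CAGGCU, and no other named miRNA reached 1 RPM on it. miR-877-3p gave 72.2% of GUCCUC and 83.4% of CCUCUU, also with no other named miRNA at 1 RPM. For miR-877-5p and UAGAGG the share was 77.6%, with let-7d-5p next at 7.01 RPM.

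Against the 340 miRNAs with a mean of at least 50 RPM, miR-877-3p stood low in the share of its main seed. Its main seed was CCUCUU, that of its most abundant sequence, although GUCCUC held slightly more of its level, 50.8%. The 49.2% on CCUCUU was at or above only 14 of the 340, miR-877-3p included, whose median was 95.7%. miR-320-3p, at 82.5%, was at or above 65 of them, miR-877-5p 124 and miR-484 232. The share taken by the single most abundant sequence placed both arms of miR-877 near the bottom. It was 11.4% for miR-877-5p, the lowest of the 340, and 20.9% for miR-877-3p, which was at or above 9 of them. The median was 46.5%, about where miR-320-3p stood (46.5%), and miR-484 had 57.5%. These ranks are descriptions and were not tested, and low levels leave fewer reads to set a share.

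The read length of miR-877-5p was the most spread of the members. miR-320-3p and miR-484 peaked sharply at 22 nt, which held 54.5% and 65.1% of their RPM as a mean of the 6 samples. miR-877-5p had no such peak. Its reads spread over 18 to 26 nt with 24.5% at 22 nt, 17.6% at 23 nt and 21.8% at 24 nt. miR-877-3p stood between, with 37.7% at 22 nt on average and from 11.6% to 56.1% in the single samples, the highest of which overlapped the 48.9% to 60.6% of miR-320-3p. The SD of the read length was 1.76 nt for miR-877-5p, exceeded by only 2 of the 340 miRNAs, whose median was 0.88 nt. It was 1.19 nt for miR-877-3p, 1.0 nt for miR-320-3p and 0.73 nt for miR-484. The mean length was close to 22 nt for every member. No difference between groups passed the test, which cannot give a p below 0.1 with these 6 samples. The difference, Tau tg minus WT, was -0.49 nt for miR-877-5p (exact permutation test, p = 0.4, adjusted p = 0.9; -0.94 nt without WT 2 and -0.21 nt without WT 3), 0.24 nt for miR-877-3p (p = 0.7, adjusted p = 1), 0.03 nt for miR-484 (p = 0.8, adjusted p = 1) and -0.002 nt for miR-320-3p (p = 1, adjusted p = 1).

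**Figure D4:**
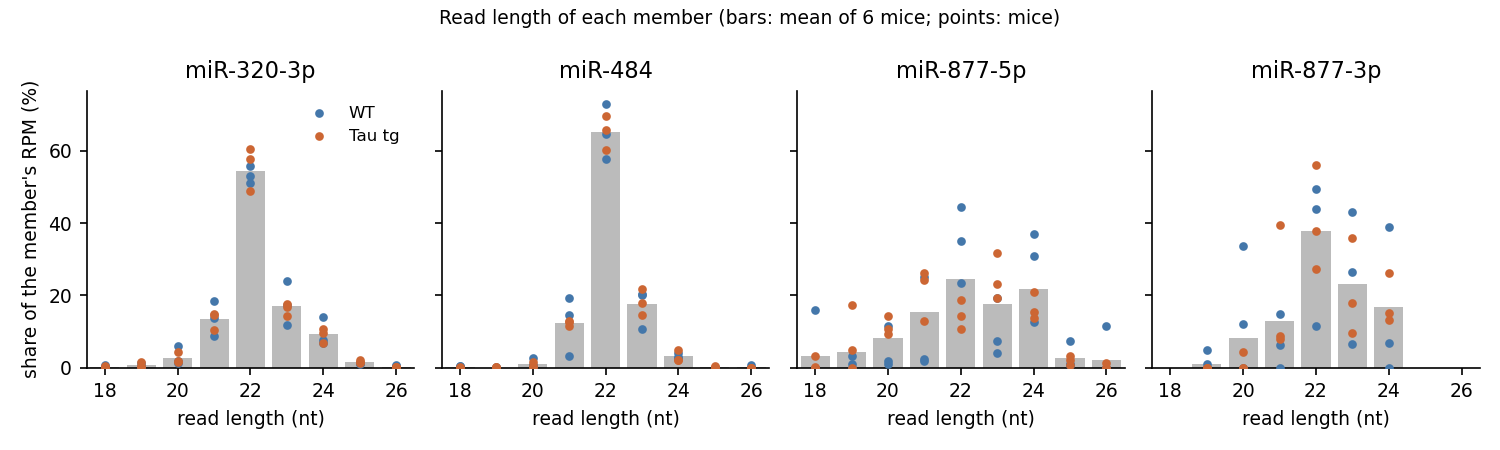
Share of each member's RPM (percent, vertical axis) by read length in nt. Bars are the mean of the 6 mice and points are mice, WT in blue and Tau tg in orange. miR-320-3p and miR-484 peak at 22 nt with 54.5% and 65.1%, and miR-877-5p spreads over 18 to 26 nt.

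The spread of the miR-877-5p reads lay at their 3′ end. The first 4 reads by mean level, shown because they all run past the annotated 20-nt miRNA, differ from each other only in where they stop.
miR-877-5p read 1: gUAGAGGagauggcgcagggg
miR-877-5p read 2: gUAGAGGagauggcgcaggggac
miR-877-5p read 3: gUAGAGGagauggcgcaggggaca
miR-877-5p read 4: gUAGAGGagauggcgcagggga
They began at hairpin base 1, the first base of the intron, where 93.0% of the mean level began. The rest began at base 2, and none before the splice site. The last base that matched the hairpin was base 20 for 22.1% of the mean level, base 22 for 18.4%, base 23 for 18.2% and base 24 for 12.5%. The annotated 20-nt form itself, with no added base, measured 0.468, 0 and 0 RPM in WT and 6.26, 15.9 and 10.2 RPM in Tau tg.

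At the other end of the intron, 61.8% of the miR-877-3p level matched the hairpin through base 85, the last base of the intron, and 30.6% stopped matching at base 84, where the RefSeq miRNA ends. Reads 1 and 2 ran 1 base past the intron, and that last U did not match the first exon base after it in the Abcf1 transcript. A tail of U only, after the last matching base, was found on 45.1% of the mean level of miR-877-3p. It was 59.9%, 45.3% and 26.2% in WT and 26.6%, 57.9% and 44.5% in Tau tg, with wide overlap. A tail of A only was found on 8.27%, and 44.3% of the level matched the hairpin to its last base. For miR-877-5p, 57.2% matched to the last base, 19.2% had a tail of U and 15.2% a tail of A. For miR-484 these were 75%, 16.3% and 1.7%. The Mir484 hairpin goes on with A after the annotated miRNA, so an A added there counted as a match. In the Mir877 hairpin bases 22 and 24 are A, so an A added to miR-877-5p after base 21 or 23 also counted.

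The 2 miR-484 sequences shown next differ by such a tail. They are the first and the third by level, and the first is the RefSeq miRNA letter for letter.
miR-484 read 1: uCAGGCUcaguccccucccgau
miR-484 read 3: uCAGGCUcaguccccucccgauu
Read 1 measured 344, 416 and 575 RPM in WT and 411, 532 and 266 RPM in Tau tg (log2 fold change -0.17, SE 0.52, limma over 36070 sequences, adjusted p = 0.851). Read 3 measured 75.9, 20.3 and 77.1 RPM in WT and 48.0, 66.9 and 65.5 RPM in Tau tg (log2 fold change 0.26, SE 0.72, limma, adjusted p = 0.830). In each sample read 1 was above read 3.

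Among 235 miRNAs of at least 50 RPM with 1 RefSeq hairpin, the median share with a tail of U only was 3.03%, and 75% of these miRNAs were at or below 8.87%. All 3 members were above that, with 6 miRNAs above miR-877-3p, 21 above miR-877-5p and 31 above miR-484. In the share that matched the hairpin to the last base, whose median was 88.8%, 228 of the 235 stood above miR-877-3p, 224 above miR-877-5p and 191 above miR-484. The share with a tail of A only had a median of 3.75%, and 9 miRNAs were above miR-877-5p, 40 above miR-877-3p and 172 above miR-484. For miR-484 and miR-877-5p the places in A tails and in matching depend on A bases after their annotated ends. The miR-484 read through hairpin base 27, which ends in such an A, averaged 37.7 RPM and counted as matching. These places are descriptions with no test.

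**Figure D5:**
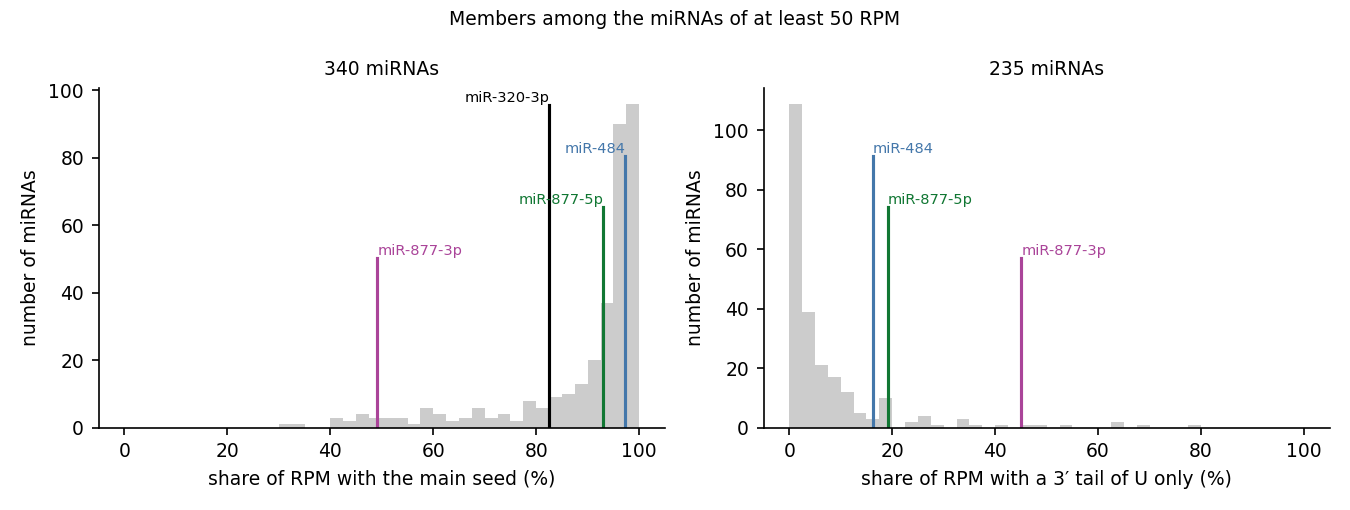
Number of miRNAs of at least 50 RPM (vertical axes) by the share of RPM with the main seed (left, 340 miRNAs) and by the share with a 3′ tail of U only (right, 235 miRNAs), both in percent. Vertical lines mark the members, among which miR-877-3p has the lowest main seed share (49.2%) and the highest share with a U tail (45.1%).

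Of the 149 member sequences that were tested, 6 had an unadjusted p under 0.05 by limma, or 4.03%, beside 2.23% of all 36070 sequences tested. The count models turned this order, with 2.01% of member and 7.11% of all sequences under edgeR and 2.68% and 9.27% under DESeq2. None of the 6 passed after adjustment, where the lowest adjusted p of a member sequence was 0.429 by limma. Named by their values after these were seen, they were 2 sequences of miR-320-3p, 2 of miR-877-5p and 1 each of miR-484 and miR-877-3p. All of the 6 had a mean level under 12 RPM, and at least 1 sample of each was at 0.

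The miR-320-3p sequences among the 6 both had shifted seeds and more reads in Tau tg. One, of 22 nt with the seed AAGCUG, measured 0.468, 4.07 and 0 RPM in WT and 12.7, 40.1 and 9.82 RPM in Tau tg (log2 fold change 3.23, SE 1.10, limma, adjusted p = 0.584). The other, of 21 nt with the seed AGCUGG, was at 0 in all WT samples and at 5.41, 16.7 and 11.9 RPM in Tau tg, where 3 reads would have been 1.41, 2.03 and 2.75 RPM in the WT samples. The whole seed AAGCUG did not follow them, at 43.6, 305 and 310 RPM in WT and 116, 291 and 346 RPM in Tau tg.

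The miR-484 sequence was of 22 nt, and the miR-877-5p sequences were the annotated 20-nt form and a 24-nt form with a U tail.
miR-484 read 8: uCAGGCUcaguccccucccgaa
miR-877-5p read 6: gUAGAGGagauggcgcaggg
miR-877-5p read 14: gUAGAGGagauggcgcaggggauu
Read 8 of miR-484 measured 27.2, 7.45 and 21.1 RPM in WT and 0.142, 0 and 0.409 RPM in Tau tg, which were 92 reads against 2 (log2 fold change -3.89, SE 1.16, limma, unadjusted p = 0.000785, adjusted p = 0.429). Its groups did not overlap, yet it held 1.27% of the miR-484 level. Read 6 of miR-877-5p had a log2 fold change of 3.29 (SE 1.22, limma, adjusted p = 0.584). Read 14 was at 0 in all 3 WT samples and at 1.85, 6.69 and 9.82 RPM in Tau tg. The miR-877-3p sequence, a 20-nt read from base 65, measured 13.6, 0 and 33.0 RPM in WT and 2.28, 0 and 0 RPM in Tau tg, with overlapping groups.

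The most abundant miR-320-3p sequence, of 22 nt, measured 433, 798 and 779 RPM in WT and 352, 1199 and 1527 RPM in Tau tg, with the same low samples as the sum of all its reads (log2 fold change 0.42, SE 0.48, limma, adjusted p = 0.584). It held 46.5% of the miR-320-3p level. The next, of 23 nt with the same seed, ranged from 65.7 to 207 RPM, and the third, of 21 nt with the seed AAGCUG, ranged from 12.2 to 229 RPM.

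The pattern of miR-320-3p was most like those of miR-365-3p (Pearson r = 0.91), miR-93-5p (0.89) and miR-221-3p (0.85), on log2(RPM + 1) over 6 samples among 275 other miRNAs with a mean of at least 100 RPM. That of miR-484 was most like miR-145a-5p (0.91), miR-200c-3p (0.87) and miR-125a-5p (0.85). That of miR-877-5p was most like miR-425-3p (0.97), miR-540-5p (0.94) and miR-181a-1-3p (0.87), and that of miR-877-3p, among 276, most like miR-192-5p (0.78), miR-222-5p (0.78) and miR-296-5p (0.77). Among the members, r was 0.45 between miR-320-3p and miR-877-5p, 0.42 between miR-320-3p and miR-877-3p, -0.41 between the arms of miR-877, and -0.19, -0.43 and -0.07 between miR-484 and miR-320-3p, miR-877-5p and miR-877-3p. These values describe likeness over 6 samples, and any miRNAs compared share the library and depth of each sample. The highest of so many are high by choice.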

How the data were processed

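Ago-bound short RNAs of 3 WT and 3 Tau tg mouse brains were analysed, grouped by sample title. Per the study's methods, Ago was pulled down with a GW182 peptide, and the SPOROS pipeline demultiplexed, trimmed and compiled the reads, removed rare and artificial sequences and matched the rest to small RNA lists. Trimming was by Trim Galore per the submitters' processing notes, version not given in the sources used here. The deposited values are RPM, the authors' scaling of each unique sequence to the library size. The seed viability is a score deposited by the authors per 6mer seed, a percent that they averaged over 3 murine cell lines. The authors' total column, a signal summed over more than these 6 deposited samples, was not used. Since rare reads were removed, low values are incomplete, and miRNA names are the authors' BLAST matches.

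Values were whole multiples of 1 read (tolerance 0.05 reads) for 100% of entries, so reads could be recovered. miRNA sums and sequences averaging at least 1 RPM were tested with limma 3.58.1 (mean-variance trend, log2(RPM + 1), Benjamini-Hochberg over all rows). This scale understates the change of low rows. Seed share, mean length and arm share were compared by exact permutation with adjustment over 9 measures. The named items were the 4 members, miR-320-5p, the listed miRNAs, the 3 most abundant sequences of each member, its sequences with another seed or an unadjusted p under 0.05, miRNAs sharing a main seed and the 3 most alike in pattern, with further sequences named after their values were seen. The members and lists were chosen with earlier results of these data known. Alternatives were other pseudocounts, filters and scalings, limma with no trend, a replicate block, count models on the recovered reads (DESeq2 1.42.0, edgeR 4.0.16), subsets of reads and leaving out each sample. limma and edgeR were tested on simulated data. Hairpins and mature miRNAs are from RefSeq (GRCm38.p6), matched by name for 3 of the 4 members, introns and transcription starts from GENCODE M21 (GRCm38). Reads are written with U. A read was placed at its longest exact match of at least 15 nt, with up to 3 further bases counted as a tail. R 4.3.3, Python 3.11.15 and SciPy 1.17.1 were used. The labels do not state the WT samples to be separate mice beyond their replicate numbers. The study's methods name 3 control mice, whereas its figure legends describe the tau comparison as averages over 4 samples. The p-values set the group differences against the spread between these samples.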

Additional observations from a re-analysis of the deposited data

How the results depend on the processing

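Over the alternatives run, 161 of 178 recomputed values were scored as unchanged, and no level reached an adjusted p under 0.05. Levels and per-sample measures had to keep their direction and side of the threshold, and counts had to stay near the first count. The permutation tests cannot give a p below 0.1, so for them only the direction could change. All reversals came from leaving out 1 sample. The log2 fold change then ranged from -0.040 to 0.82 for miR-320-3p, from -0.42 to -0.025 for miR-484, from 0.20 to 1.11 for miR-877-5p and from -0.37 to 0.17 for miR-877-3p. The main seed share difference ranged from -1.97 to 6.45 points for miR-320-3p, from -2.97 to -0.90 points for miR-484, from 2.47 to 22.4 points for miR-877-5p and from -28.3 to 6.38 points for miR-877-3p. The mean length difference ranged from -0.12 to 0.086 nt for miR-320-3p, from -0.029 to 0.097 nt for miR-484, from -0.94 to -0.21 nt for miR-877-5p and from -0.22 to 0.75 nt for miR-877-3p. The cause was not tested. The count of 6 member sequences with an unadjusted p under 0.05 was 1 with a mean of at least 10 RPM, where 28 were tested (3.57%, beside 4.28% of all sequences), 3 under edgeR (2.01% beside 7.11%) and 4 under DESeq2 (2.68% beside 9.27%). It was 3 to 8 when 1 sample was left out. The lowest was without Tau tg 2 (2.01% beside 1.23%) and the highest without WT 3 or Tau tg 3 (5.37% beside 2.24% and 2.12%). The count of listed other miRNAs made without Drosha with an adjusted p under 0.05 was 0 under every alternative run. Over all miRNAs tested it was 5 under DESeq2 and 0 under the rest.

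With the replicate number as a block, the log2 fold changes were as in the fit without it (0.29, -0.24, 0.53 and -0.14, with a lowest adjusted p of 0.879). In this limma fit 4 of 149 member sequences had an unadjusted p under 0.05, or 2.68%, beside 2.24% of all sequences. Same-numbered samples deviated with correlations of -0.002, -0.069 and 0.041, so the numbers were not taken as pairs. Depth limits the miR-877 arms most, with 54 reads of miR-877-5p in WT 3, where 3 reads correspond to 2.75 RPM.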

Other observations

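Of the 16 RefSeq hairpins that coincide exactly with an annotated intron, 9 had mature miRNAs with a mean of at least 1 RPM. Mir877 was the highest of them, with 193 RPM over both arms. Mir1224, an intron of Vwa5b2, followed with 117 RPM, then Mir1981 in Marc2 with 69.6 RPM, Mir7080 in Cpne7 with 24.9 RPM and Mir3547 in Baiap3 with 19.0 RPM. Mir6944, an intron of Dbn1, the gene of the actin-binding protein drebrin, had 11.7 RPM. The hairpins in Hspg2, Lat, Fbrs, Mst1, Myh3, Lta and Dnase1l1 had none. This set was drawn from the annotation after the data had been seen, and its levels are given with no test.

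On the hairpins of Mir484 and Mir877, the exact reads outside the members amounted to a single 15-nt sequence within miR-484, at 0.261 RPM on average and seen only in Tau tg 1. No exact read came from the loop of either hairpin or from the 3′ side of Mir484 in these 6 samples.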
